A study of Mus musculus with 11 samples.

Results

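The interferon regulatory factor (IRF) family of transcription factors was followed in beta cells sorted from mouse islets after exposure to interferon-gamma (IFNγ). Its members here were the 8 genes Irf1, Irf2, Irf3, Irf4, Irf5, Irf7, Irf8 and Irf9, taken by symbol from the 55487 genes in the files, and all 8 were present. The 11 RNA-seq libraries came from islets of 12-week-old male C57BL/6JRj mice, whose beta cells were isolated by flow cytometry as EpCam+, CD24-low and CD71+ cells. The study's gating leaves out dead cells and cells positive for CD45, TER119 or CD31, markers of hematopoietic and endothelial cells. PD-L1high cells (4 libraries, replicates 1 to 4) and PD-L1low cells (3 libraries, replicates 2 to 4) were the fractions with much and little surface PD-L1 from islets exposed to IFNγ at 50 pg/mL over 20 h of culture. Control cells (4 libraries, replicates 1 to 4) came from islets cultured without the cytokine and were sorted with no PD-L1 gate. The sources name no transgene or deletion for any group. The labels number the replicates but do not name their animals, so p values measure the spread between these libraries.

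IRFs share a DNA-binding domain that reads GAAA repeats, and they differ in how they are switched on. When IFNγ binds its receptor, the kinases Jak1 and Jak2 pass the signal to factors that bind gamma-activated sites (GAS) and switch on Irf1, an activator of antigen presentation and antiviral genes that Irf2 opposes by competing for the same elements. Irf9 is the DNA-binding part of the complex ISGF3, which also holds Stat2 and binds the interferon-stimulated response element (ISRE). Irf3 and Irf7 lie dormant until kinases of nucleic acid sensing phosphorylate them, after which they switch on type I interferon genes, Irf3 being made all the time and Irf7 being itself an interferon-induced gene. Irf5 acts downstream of Toll-like receptors, and Irf4 and Irf8 are mainly factors of lymphocytes, macrophages and dendritic cells. In beta cells, Irf1 is known as a mediator of cytokine responses, including the induction of PD-L1.

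The promoters are shown for the 3 members whose windows held one of the 2 motifs searched, because these are elements through which interferons are known to act on genes. RefSeq windows of 250 bases before to 50 bases after a transcript start (GRCm38.p6) were found for all 8 members, 11 windows in all. Both strands were searched for GAS as TTCNNNGAA and for the core of the ISRE as GAAANNGAAA; the 2 motifs did not overlap in any of these windows. Capitals mark the matches, and each line is the plus strand, which is the strand of the gene.
Irf1: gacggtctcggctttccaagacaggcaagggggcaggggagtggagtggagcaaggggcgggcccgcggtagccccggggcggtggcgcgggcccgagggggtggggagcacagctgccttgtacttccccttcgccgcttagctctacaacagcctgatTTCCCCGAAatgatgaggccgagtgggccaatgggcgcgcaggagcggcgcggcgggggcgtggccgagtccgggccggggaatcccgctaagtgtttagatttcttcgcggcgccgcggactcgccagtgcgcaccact
Irf8: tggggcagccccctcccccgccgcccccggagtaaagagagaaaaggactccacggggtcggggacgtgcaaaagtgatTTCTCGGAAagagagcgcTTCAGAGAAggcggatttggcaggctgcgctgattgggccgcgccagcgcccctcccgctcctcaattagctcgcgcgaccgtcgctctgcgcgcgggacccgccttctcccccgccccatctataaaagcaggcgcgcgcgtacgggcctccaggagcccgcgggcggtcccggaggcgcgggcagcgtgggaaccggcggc
Irf2: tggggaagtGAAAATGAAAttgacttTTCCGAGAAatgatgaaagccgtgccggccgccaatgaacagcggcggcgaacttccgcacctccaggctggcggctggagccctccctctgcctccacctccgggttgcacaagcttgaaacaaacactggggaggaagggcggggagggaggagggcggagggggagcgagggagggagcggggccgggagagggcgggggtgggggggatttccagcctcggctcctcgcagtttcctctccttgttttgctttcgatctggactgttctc
The Irf1 window (chr11:53769764-53770063) held 1 GAS match, TTCCCCGAA, which began 90 bases before the start. The Irf8 window (chr8:120736108-120736407) held 2 GAS matches, TTCTCGGAA and TTCAGAGAA, beginning 171 and 153 bases before the start. The Irf2 window (chr8:46739495-46739794) held the only ISRE core among the members, GAAAATGAAA at 241 bases before the start, and 1 GAS match, TTCCGAGAA, at 224 bases. The other 8 windows, which belong to the other starts of Irf1 and Irf8 and to Irf3, Irf4, Irf5, Irf7 and Irf9, held neither set of letters. Both Irf9 windows (chr14:55603735-55604034 and chr14:55604329-55604628) begin after the annotated start of that gene at 55603571. Bases before that start were not searched for Irf9. Over all 32851 windows, 8.30% held the GAS letters and 3.44% the ISRE core, and a match is a description of the letters and not of a bound site.

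**Figure D1:**
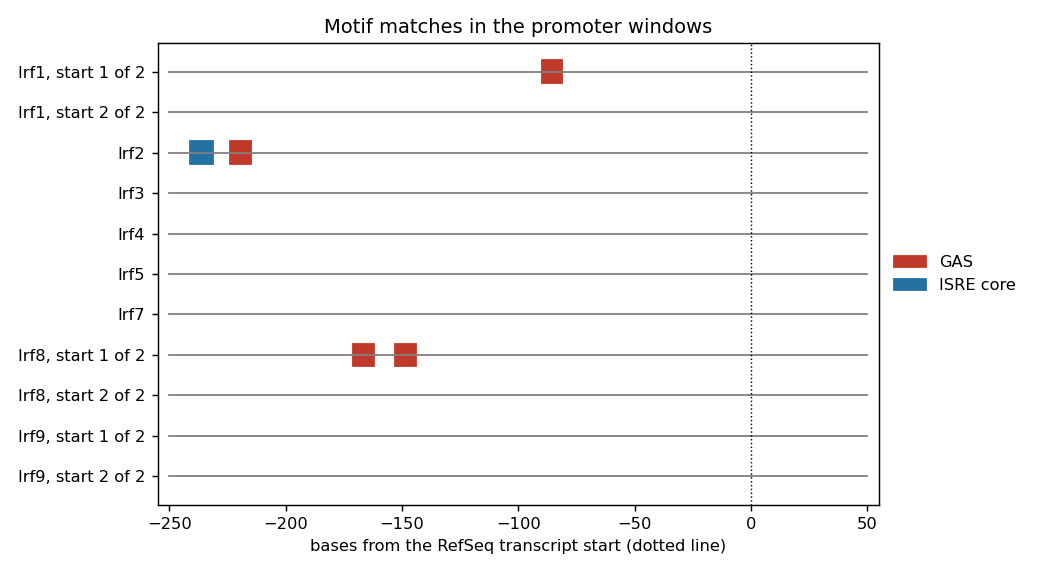
Positions of GAS (red) and ISRE core (blue) matches in the 11 RefSeq promoter windows of the 8 members, in bases from the transcript start, drawn along the gene. Irf1 has 1 GAS match, Irf8 has 2, Irf2 has 1 of each motif, and the other windows are empty.

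Library totals ran from 10422018 to 15810769 counts after rounding, and the mitochondrial share from 5.55% to 13.3%, highest in control replicate 1. The 9 beta cell markers summed to 61641 to 94512 CPM over all libraries (CPM, library totals being adjusted by TMM), and none of them was at 0. The 5 alpha cell markers summed to 561 to 1483 CPM in PD-L1high cells and 349 to 353 CPM in PD-L1low cells, against 323 to 1387 CPM in control cells, and the 2 markers of pancreatic polypeptide cells to 233 to 562 and 26.8 to 33.5 CPM, against 150 to 382 CPM in control cells. The 3 delta cell markers summed to 11.4 to 39.4 CPM in PD-L1high cells and 3.51 to 9.11 CPM in PD-L1low cells, against 6.70 to 33.2 CPM in control cells. Ppy and Pyy, hormone genes of pancreatic polypeptide cells, were lower in PD-L1low than in control cells (log2 fold changes -3.49 and -2.76) and higher in PD-L1high than in PD-L1low cells (4.16 and 2.96), as was Sst, which encodes somatostatin of delta cells (2.42, edgeR adjusted p = 0.00136). Gcg, the glucagon gene of alpha cells, was also higher in PD-L1high than in PD-L1low cells (2.37, edgeR adjusted p = 0.0163), and the other alpha cell markers were not called. Ppy was higher in PD-L1high than in control cells as well (0.67, edgeR adjusted p = 0.00183), while Pyy was not called there (0.20). The 3 T cell markers had no count in any library. The part of other islet cells in the results on the IRF genes was not tested.

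Irf1 was the most abundant member in every group, and the order below it differed between groups. Levels of different genes are set side by side as TPM, RSEM's share of transcripts corrected for their length. In PD-L1high cells the order of mean TPM was Irf1 (87.3 ± 17.2 SD, n = 4), Irf9 (31.3 ± 6.18), Irf7 (24.7 ± 6.21), Irf2 (22.7 ± 7.74) and Irf3 (12.9 ± 2.34). In PD-L1low cells it was Irf1 (33.2 ± 6.27 SD, n = 3), Irf2 (18.8 ± 2.21), Irf9 (15.7 ± 5.49), Irf3 (13.7 ± 1.34) and Irf7 (5.73 ± 1.17). In control cells it was Irf1 (22.96 ± 2.01 SD, n = 4), Irf2 (19.3 ± 3.43), Irf3 (13.0 ± 3.38), Irf9 (9.68 ± 1.98) and Irf7 (6.95 ± 2.35).

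Irf9 and Irf7 thus stood above Irf2 and Irf3 by mean TPM in PD-L1high cells and below both in control cells, although neighbours in these orders mostly overlapped. The ranges did not overlap between Irf1 and the next member in PD-L1high and PD-L1low cells, nor between Irf3 and Irf7 in PD-L1low cells, while in control cells the range of Irf1 overlapped that of Irf2. In every group the 5 leading members lay above the 3 lowest ones without overlap. Irf8, Irf5 and Irf4 made up the bottom of every order, with means of 0.45, 0.0825 and 0.0275 TPM in PD-L1high cells, 0.257, 0.06 and 0.0167 TPM in PD-L1low cells and 0.0125, 0.0525 and 0.0325 TPM in control cells.

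By TPM, the ratio of Irf1 to its competitor Irf2 separated the 3 groups, as Irf1 did alone. By CPM, Irf1 did not separate PD-L1low from control cells, as control replicate 1 (45.4 CPM) lay above PD-L1low replicate 3 (44.9 CPM). Irf1 ran from 73.1 to 109 TPM in PD-L1high and 27.1 to 39.6 TPM in PD-L1low cells, against 21.1 to 25.5 TPM in control cells. The TPM ranges of Irf2 overlapped between all groups. The ratio of their TPM within a library was 3.13, 6.25, 2.57 and 4.98 in PD-L1high replicates 1 to 4 and 2.15, 1.56 and 1.62 in PD-L1low replicates 2 to 4, against 1.02, 1.30, 1.203 and 1.30 in control replicates 1 to 4. No ratio of 1 group fell within the range of another; these ratios are a description, with no test.

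**Figure D2:**
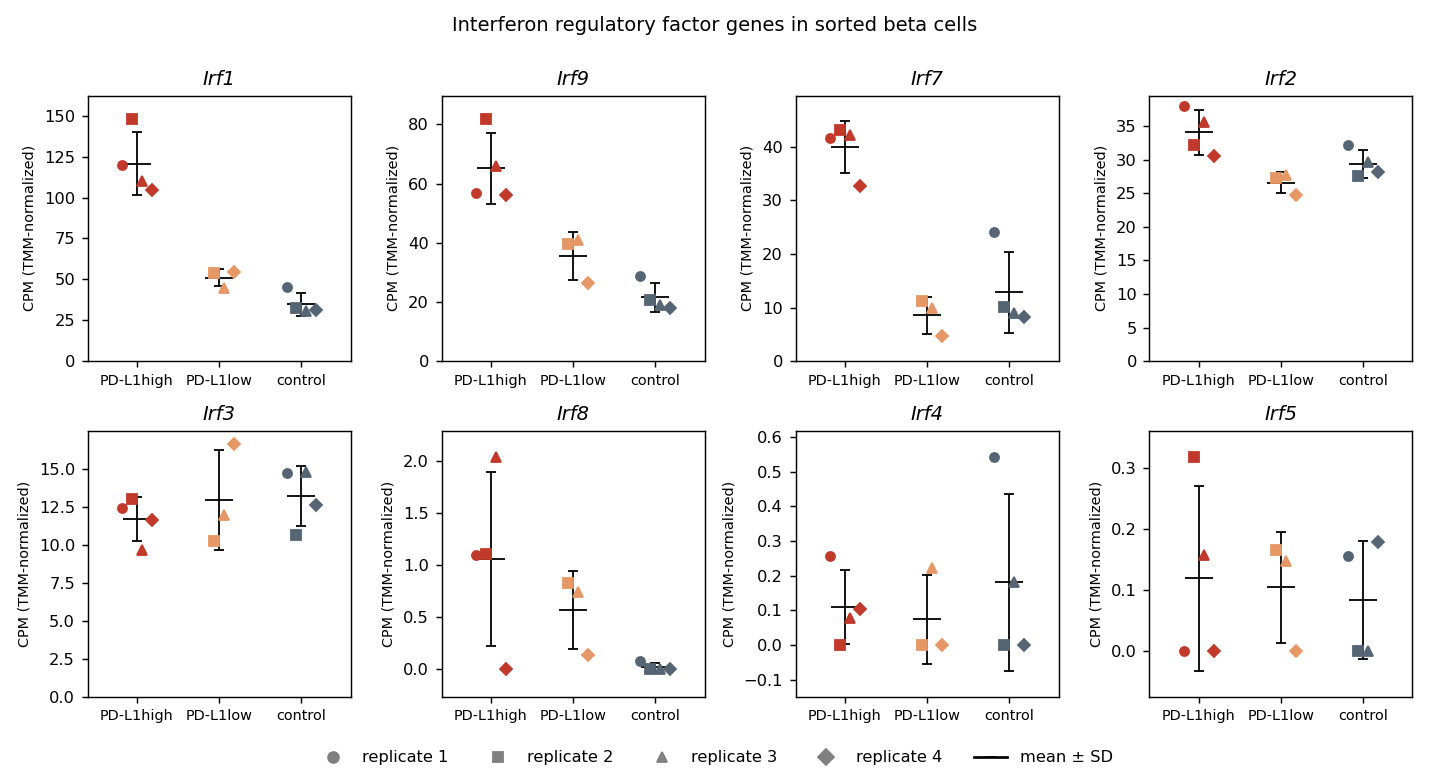
CPM after TMM normalization of the 8 members in PD-L1high (4 libraries), PD-L1low (3) and control (4) beta cells, 1 panel per gene on linear axes; symbols are replicates and bars the mean ± SD. Irf1, Irf9 and Irf7 are higher in all 4 PD-L1high libraries than in any control library, and Irf4, Irf5 and Irf8 reach at most 2.04 CPM.

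Irf1, Irf9 and Irf7 rose in PD-L1high cells relative to control cells. They are 3 of the 6 members that passed the filter on low counts (all except Irf4 and Irf5), where 0.991% of the 16252 tested genes were called in either direction and 0.941% as higher. In bulk libraries, more responding cells and more RNA per cell cannot be told apart. The CPM ranges of the groups did not overlap, with PD-L1high above, for these same 3 members, against 2.68% of all tested genes.

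Irf1 (chr11:53770014-53778374, plus strand) had 120, 148, 110 and 105 CPM in PD-L1high replicates 1 to 4, against 45.4, 32.2, 30.4 and 31.5 CPM in control replicates 1 to 4. Every PD-L1high library was more than 100 CPM and every control library under 50 CPM. The log2 fold change was 1.80 (SE 0.132, adjusted p = 7.19e-07, rank 22 of all tested genes by p), and within replicate numbers the ratio was 2.65, 4.59, 3.62 and 3.32.

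Irf9 (chr14:55603571-55610030, plus strand), the DNA-binding part of ISGF3, had 56.7, 81.9, 66.0 and 56.2 CPM in PD-L1high replicates 1 to 4, against 28.9, 20.6, 18.8 and 17.8 CPM in control replicates 1 to 4. The lowest PD-L1high library stood well above the highest control library. The log2 fold change was 1.61 (SE 0.162, adjusted p = 2.70e-05). Irf9 shares 123 bases with Rnf31 on the same strand, a gene whose own log2 fold change was 0.43 (adjusted p = 0.204).

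Irf7 (chr7:141262706-141266481, minus strand), the inducible factor of type I interferon genes, had 41.7, 43.2, 42.1 and 32.7 CPM in PD-L1high replicates 1 to 4, against 24.1, 10.05, 8.94 and 8.33 CPM in control replicates 1 to 4. The groups did not overlap, and control replicate 1 alone stood between them. The log2 fold change was 1.76 (SE 0.238, adjusted p = 0.000747), and the ratio within replicate 1 was 1.73, against 4.30, 4.72 and 3.93 within replicates 2 to 4. Without control replicate 1 the log2 fold change was 2.10 (adjusted p = 2.26e-05).

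No member passed the test between PD-L1low and control cells, a comparison in which 0.08% of the tested genes were called in either direction and 0.0615% as higher. By edgeR, 3 members (Irf1, Irf8 and Irf9) had an unadjusted p under 0.05, DESeq2 called 2 and limma-voom 0. Irf1 had 53.7, 44.9 and 54.5 CPM in PD-L1low replicates 2 to 4, against the control values above, so that the groups overlapped only through control replicate 1 at 45.4 CPM. Its log2 fold change was 0.63 (SE 0.146, adjusted p = 0.329), and each PD-L1low library exceeded the control of its replicate number, by ratios of 1.67, 1.47 and 1.73.

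Irf9 had 39.5, 41.0 and 26.3 CPM in PD-L1low replicates 2 to 4, of which the first 2 lay above every control library and the last below control replicate 1. The log2 fold change was 0.76 (SE 0.181, adjusted p = 0.355), with ratios of 1.92, 2.17 and 1.48 within replicates. Without control replicate 1, both Irf1 (0.69, adjusted p = 0.0466) and Irf9 (0.88, adjusted p = 0.0170) passed the test, and the number of all genes called became 43, against 13 with it. Without PD-L1high replicate 1, Irf9 passed alone (0.88, adjusted p = 0.0205).

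Irf7 had 11.3, 9.84 and 4.63 CPM in PD-L1low replicates 2 to 4, which lay near or below the controls of the same numbers. The log2 fold change was -0.34 (SE 0.277, 95% interval -0.93 to 0.26, adjusted p = 1.0), and without control replicate 1 it was -0.14 (adjusted p = 1.0). The ratios to control were 1.12, 1.10 and 0.556 within replicates 2 to 4, the last from the only PD-L1low library under 5 CPM.

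Irf1, Irf7 and Irf9 were also higher in PD-L1high than in PD-L1low cells of the same IFNγ-treated islets. They are 3 of 6 tested members, where 0.732% of all tested genes were called in either direction and 0.64% as higher. The log2 fold change was 2.10 for Irf7 (SE 0.270, adjusted p = 0.000804), 1.17 for Irf1 (SE 0.145, adjusted p = 0.000446) and 0.84 for Irf9 (SE 0.175, adjusted p = 0.0383). The ranges did not overlap for these 3 and for Irf2, against 4.41% of all tested genes that were higher in this sense.

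Within replicates 2 to 4, the ratio of PD-L1high to PD-L1low CPM was 3.83, 4.28 and 7.06 for Irf7, 2.75, 2.45 and 1.92 for Irf1, and 2.07, 1.61 and 2.13 for Irf9. For all 3 genes, the value was higher in the PD-L1high library of each of these replicate numbers, which already follows from the ranges not overlapping. The call of Irf9 rested on the setting: it was lost in 12 of 23 alternative analyses, in which the direction stayed the same. Leaving out PD-L1high or PD-L1low replicate 2, 3 or 4 gave an adjusted p of 0.0787 to 0.308, and leaving out control replicate 4 gave 0.0794. PD-L1 itself was the sorting criterion here, so the difference in its gene Cd274 between these fractions is no finding.

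**Figure D3:**
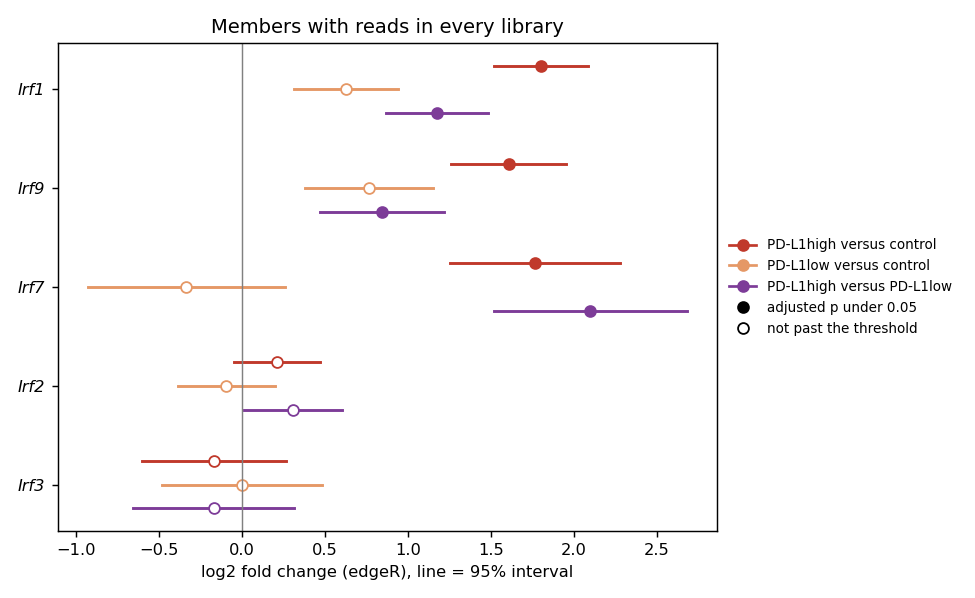
Log2 fold changes from edgeR with 95% intervals for the 5 members with reads in every library, in PD-L1high versus control, PD-L1low versus control and PD-L1high versus PD-L1low; filled points passed an adjusted p of 0.05. Irf1, Irf9 and Irf7 lie right of 0 in both comparisons of PD-L1high cells, Irf7 lies at -0.34 in PD-L1low versus control, and Irf2 and Irf3 lie near 0 throughout.

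Irf2, the competitor of Irf1, and Irf3, the factor that waits for phosphorylation, did not pass the test in any comparison. Irf2 (chr8:46739732-46847458, plus strand) had 38.0, 32.2, 35.7 and 30.5 CPM in PD-L1high replicates 1 to 4 and 27.3, 27.7 and 24.8 CPM in PD-L1low replicates 2 to 4, against 32.2, 27.6, 29.6 and 28.1 CPM in control replicates 1 to 4. All PD-L1high libraries lay above all PD-L1low libraries, but the difference was small (log2 fold change 0.31, 95% interval 0.01 to 0.60, adjusted p = 0.562). Relative to control the log2 fold change of Irf2 was 0.21 in PD-L1high cells (95% interval -0.05 to 0.47) and -0.09 in PD-L1low cells (-0.39 to 0.20).

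Irf3 (chr7:44997648-45002848, plus strand) had 12.4, 13.0, 9.67 and 11.6 CPM in PD-L1high replicates 1 to 4 and 10.3, 11.98 and 16.6 CPM in PD-L1low replicates 2 to 4, against 14.7, 10.6, 14.8 and 12.6 CPM in control replicates 1 to 4. The groups overlapped in every comparison. The 95% interval of the log2 fold change was -0.60 to 0.26 for PD-L1high versus control, -0.48 to 0.48 for PD-L1low versus control and -0.65 to 0.31 for PD-L1high versus PD-L1low. These intervals hold changes of either direction, at 112 to 245 counts per library.

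Irf8, Irf4 and Irf5, the members of immune cells, were near the limit of detection. Irf8 (chr8:120736358-120756694, plus strand) had 17, 14, 26 and 0 counts in PD-L1high replicates 1 to 4 and 10, 10 and 2 counts in PD-L1low replicates 2 to 4, against 1, 0, 0 and 0 counts in control replicates 1 to 4. Of the 80 counts, 79 thus came from islets given IFNγ, while PD-L1high replicate 4 had none, which allows up to 0.312 CPM (3 counts). Summed over libraries and divided by their depths, Irf8 was 60.9 times as high in PD-L1high as in control cells (exact 95% interval 10.5 to 2449) and 29.8 times as high in PD-L1low as in control cells (4.82 to 1230). These intervals cover counting error only and leave out the spread between libraries, and both ratios rest on a control total of 1 count.

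Irf8 did not pass edgeR's test in PD-L1high versus control cells (adjusted p = 0.109) or in PD-L1low versus control cells (adjusted p = 1.0). In PD-L1low versus control cells the lowest PD-L1low library had 2 counts and the highest control library 1 count, both under the floor of 3 counts, so no separation of these groups is read from them (PD-L1low lay above control without overlap for 1.28% of all tested genes). Irf8 passed the filter on low counts through the IFNγ-treated libraries, so its tests against control are not read as support for a difference. In PD-L1high versus control cells it was called in 3 of 21 alternative analyses. Without PD-L1high replicate 4, the adjusted p for PD-L1high versus control cells was 0.0435, with no filter on low counts it was 0.0440, and by DESeq2 it was 0.0319. Between PD-L1high and PD-L1low cells the ratio of summed counts was 2.05 (1.23 to 3.51 by counting error) and the groups overlapped (adjusted p = 0.969).

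The Irf8 gene lies within Gm20388 on the same strand, which had 439 to 837 counts per library and a log2 fold change of 0.05 in PD-L1high versus control cells (adjusted p = 0.961). Reads of the 2 genes may have been divided between them, so the level of Irf8 is uncertain. The gate leaves out CD45+ cells, and of the 8 markers of macrophages and dendritic cells, Adgre1, Flt3, Itgax and Lyz2 had no count in any library, and the summed level of the 8 was 9.79 to 12.3 CPM in PD-L1high cells and 7.51 to 10.9 CPM in PD-L1low cells, against 7.14 to 11.3 CPM in control cells. The 5 markers of B and plasma cells summed to 0.715 to 1.35 CPM in PD-L1high cells and 0 to 0.994 CPM in PD-L1low cells, against 0.537 to 1.24 CPM in control cells, with Cd79b and Ms4a1 at 0 in all libraries.

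Irf4 (chromosome 13) and Irf5 (chromosome 6) failed the filter and were not tested. Irf4 had 4, 0, 1 and 1 counts in PD-L1high replicates 1 to 4 and 0, 3 and 0 counts in PD-L1low replicates 2 to 4, against 7, 0, 3 and 0 counts in control replicates 1 to 4. Irf5 totalled 6 counts in PD-L1high, 4 in PD-L1low and 4 in control libraries, with at most 4 in any library. Among the 6 genes of proteins that Irf4 and Irf8 are known to bind DNA with or work beside, Spi1 and Batf3 had no count in any library, and Ikzf3 was the only one tested and was not called.

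Upstream of the IRFs, the receptors and kinases of the interferon pathways did not pass the test. Ifngr1 and Ifngr2, the receptor chains for IFNγ, and the kinases Jak1 and Jak2 were called in no comparison by edgeR, DESeq2 or limma-voom, the largest value being 0.35 for Jak2 in PD-L1high versus control, the only one of these with an unadjusted p under 0.05. Neither was any of the 3 genes of the type I interferon receptor list, Ifnar1, Ifnar2 and Tyk2, for which 1 gene had an unadjusted p under 0.05 in PD-L1high versus control and DESeq2 and limma-voom called 0 in all 3 comparisons.

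Stat2, a partner of Irf9 in ISGF3, was higher in PD-L1high cells than in control cells (log2 fold change 1.88, adjusted p = 0.000265) and than in PD-L1low cells (1.11, adjusted p = 0.0420), and its value in PD-L1low versus control was 0.77 (adjusted p = 1.0). Its median was 112 CPM in PD-L1high and 45.9 CPM in PD-L1low cells, against 22.7 CPM in control cells, whose highest library had 64.5 CPM. The call against PD-L1low cells was lost when control replicate 4 or any of PD-L1high and PD-L1low replicates 2, 3 and 4 was left out, and Stat2 passed in PD-L1low versus control without control replicate 1 or PD-L1high replicate 1. With no replicate block, Stat2 was not called in PD-L1high versus control (1.72, adjusted p = 0.0551) or in PD-L1high versus PD-L1low (1.32, adjusted p = 0.393), so both calls depended on that term.

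Of 14 tested genes among the 18 sensors, adaptors and kinases that act upstream of Irf3, Irf5 and Irf7, the 3 RNA sensors of the RIG-I group rose in PD-L1high cells relative to control and also relative to PD-L1low cells. The log2 fold changes for PD-L1high versus control were 1.22 for Ddx58, which encodes RIG-I, 1.16 for Ifih1, which encodes MDA5, and 1.79 for Dhx58, which encodes LGP2. The kinases that phosphorylate Irf3 and Irf7 gave 0.28 (Tbk1) and -0.23 (Ikbke), and the adaptors Mavs, Ticam1 and Myd88 gave 0.27, 0.40 and 0.21, none of them called. The median over the 14 genes was 0.24 in PD-L1high versus control, 0.08 in PD-L1low versus control and 0.18 in PD-L1high versus PD-L1low, beside -0.020, 0.00037 and -0.0042 over all tested genes. In PD-L1low versus control cells none of the 14 was called by edgeR, DESeq2 or limma-voom, and 2 had an unadjusted p under 0.05. In PD-L1high versus PD-L1low cells 0 of the 14 were called without PD-L1high replicate 2 or 3, and 1 without PD-L1high replicate 4 or PD-L1low replicate 2, 3 or 4.

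The 9 interferon genes on the list, which include type I genes that Irf3 and Irf7 are known to switch on, had few or no counts. Not all of the 9 are such targets, and other Ifna genes were not on the list. Ifnb1, Ifna2, Ifna4, Ifna5, Ifne, Ifng and Ifnl2 had no count in any of the 11 libraries, which allows up to 3 counts in each, and the other 2 (Ifnk and Ifnl3) had at most 4 counts in a library. Among the 8 negative regulators, Usp18, which blocks signalling at the type I interferon receptor, and Trim21, a ubiquitin ligase of several IRFs, rose in PD-L1high versus control cells (log2 fold changes 1.27 and 1.33), and Usp18 was also higher in PD-L1high than in PD-L1low cells (1.19), a call that was lost without PD-L1high or PD-L1low replicate 2 or 3. None of the 8 was called in PD-L1low versus control cells by edgeR, DESeq2 or limma-voom, with 1 at an unadjusted p under 0.05. The 3 Irf2 binding proteins Irf2bp1, Irf2bp2 and Irf2bpl were called in no comparison and by none of the 3 tools, with 0 genes at an unadjusted p under 0.05 and values between -0.16 and -0.0038.

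Many genes known as targets of Irf1 and of ISGF3 were higher in PD-L1high cells than in the other groups. Of 13 tested genes among 17 known Irf1 targets, 10 rose in PD-L1high versus control, 8 in PD-L1high versus PD-L1low and 2 in PD-L1low versus control, and none fell. DESeq2 called 10, 7 and 5 in the same order of comparisons and limma-voom 11, 9 and 5, and in PD-L1low versus control 6 had an unadjusted p under 0.05 by edgeR. Cd274, the gene of the sorting criterion, is 1 of the genes counted in each comparison, and its part of the count in PD-L1high versus PD-L1low is no finding. Control cells had no PD-L1 gate, so the gate on the treated cells also enters the Cd274 values against control. Its part of those counts is not read as a finding either. The median log2 fold changes of the 13 were 2.95, 1.73 and 0.58. The largest was that of Gbp2, a guanylate-binding protein, at 6.27 in PD-L1high versus control, and it was followed in the order of values by Nlrc5, the activator of MHC class I genes, at 3.99. The 2 genes that rose in PD-L1low versus control were Tap1, a peptide transporter of antigen presentation (1.56, adjusted p = 0.000421), and Cd274 (0.94, adjusted p = 0.0394), and Tap1 had a median of 121 CPM in PD-L1high and 32.7 CPM in PD-L1low cells, against 10.2 CPM in control cells. Without replicate 3, 6 of the 13 were called in PD-L1high versus control, and without PD-L1low replicate 2, 5 were called in PD-L1high versus PD-L1low. In PD-L1low versus control 1 was called without control replicate 2 or 3, PD-L1high replicate 2 or any PD-L1low library, and 5 without PD-L1high replicate 1.

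Of 19 known ISGF3 targets, all tested and Irf7 and Stat2 among them, 9 rose in PD-L1high versus control, 6 in PD-L1high versus PD-L1low and 0 in PD-L1low versus control. In the last of these, 3 genes had an unadjusted p under 0.05, and DESeq2 and limma-voom called 0. DESeq2 called 14 and limma-voom 13 in PD-L1high versus control, and 10 and 11 in PD-L1high versus PD-L1low. The median log2 fold changes were 1.88, 1.71 and 0.38. Bst2, which encodes tetherin, had a median of 20.1 CPM in PD-L1high and 4.44 CPM in PD-L1low cells, against 3.19 CPM in control cells, with a log2 fold change of 2.55 in PD-L1high versus control (adjusted p = 0.000348) and -0.11 in PD-L1low versus control. Mx1 and Mx2, antiviral GTPases, had values of -0.15 and 0.04 in PD-L1high versus control. In PD-L1high versus PD-L1low the count was 2 without PD-L1high replicate 2 or 3, 3 without PD-L1low replicate 2 or 3 and 12 without PD-L1high replicate 1, and leaving out PD-L1high replicate 1 gave 14 in PD-L1high versus control and 3 in PD-L1low versus control. These lists were drawn up with earlier results of these data in view, so their counts are a description.

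**Figure D4:**
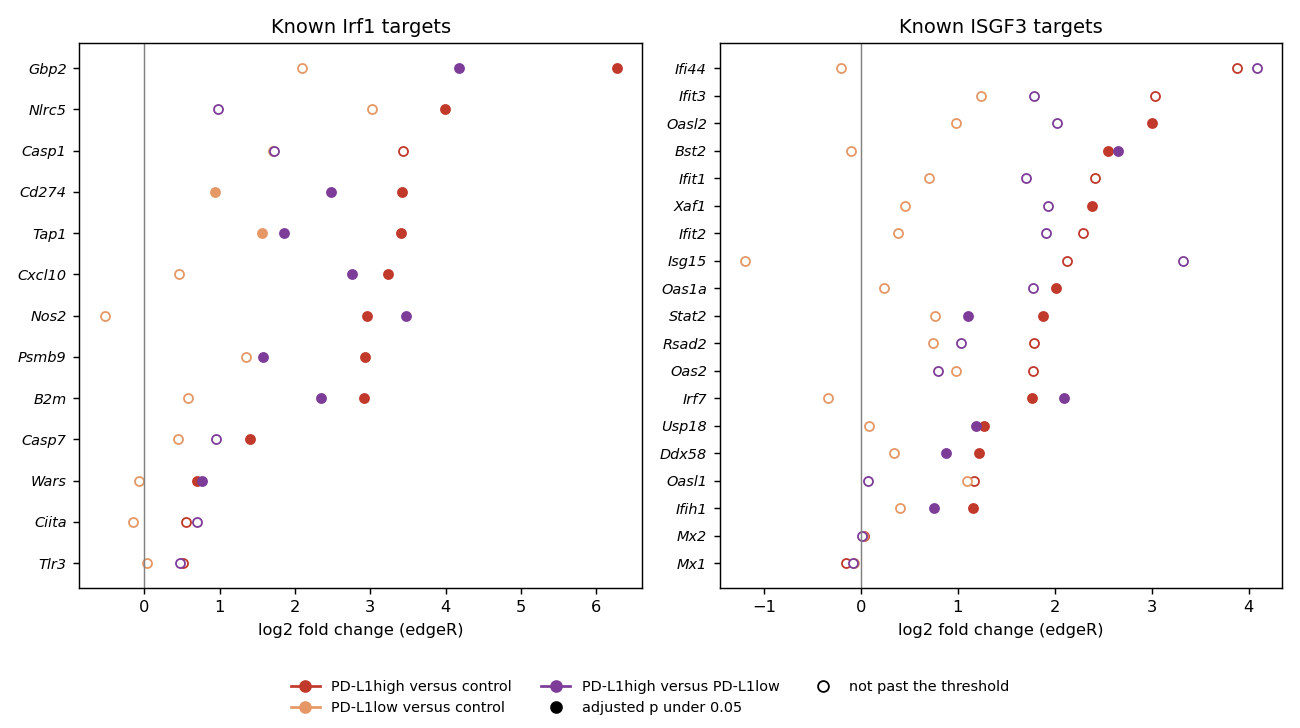
Log2 fold changes from edgeR of the 13 tested Irf1 targets (left) and the 19 ISGF3 targets (right), 1 row per gene, in the 3 comparisons; filled points passed an adjusted p of 0.05. Filled points for PD-L1low versus control are only those of Tap1 and of Cd274, the gene of the sorting criterion, while PD-L1high versus control has 10 on the left and 9 on the right.

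Control replicate 1 stood apart in these genes. By CPM it was the highest of the 4 control libraries for 19 of the 19 ISGF3 targets, for 10 of the 13 Irf1 targets and for 5 of the 6 tested members, against 38.1% of all tested genes. By TPM, control replicate 3 lay above it for Irf1 (25.5 against 23.6 TPM) and Irf9 (12.3 against 9.78 TPM), while Irf2, Irf7 and Irf8 were still highest in control replicate 1. Stat2 had 64.5 CPM in it, and its mitochondrial share was the highest of all libraries. Without it, 15 of the 19 ISGF3 targets rose in PD-L1high versus control, 12 were higher in PD-L1high than in PD-L1low cells and 3 were called in PD-L1low versus control, and of the Irf1 targets 8, 9 and 5 were called in the same order of comparisons. Its part in the other results was not tested further.

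Across the 11 libraries, the genes whose log2 CPM followed each member most closely are given as a description, since all points share the 3 groups. For Irf1 they were Parp9 (Pearson r = 0.992), Dtx3l (0.991), Cd274 (0.989), Tnfsf10 (0.986) and Gbp7 (0.984), of which Parp9 and Dtx3l encode partner proteins and Tnfsf10 the death ligand TRAIL. For Irf9 they included 9930111J21Rik2 (0.976) and Tap1 (0.9753), and for Irf7 they were Bst2 (0.966), Ifi44 (0.966) and Dhx58 (0.958). Between members, r was 0.948 for Irf1 and Irf9, 0.822 for Irf1 and Irf7 and 0.810 for Irf7 and Irf9. For Irf2 the closest genes were Ext1 (0.931), Fxyd3 (0.903) and Klf5 (0.898), for Irf3 they were Kdelc1 (0.900), 1300014J16Rik (0.887) and Commd4 (0.848), and for Irf8 they were Rapgef5 (0.915), Gm8206 (0.898) and Gm28177 (0.862), the last 2 at mean levels under 1 CPM.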

How the data were processed

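RNA-seq was analysed for 11 libraries of sorted mouse beta cells, 1 file each. According to the methods, the authors made stranded, random-primed libraries with ribosomal depletion (Ovation Solo), sequenced them as pairs, aligned them with STAR 2.5.2b to GRCm38.p6 (GenCode M23) and ran DESeq2 1.32.0 with a batch term they do not define. The deposited expected counts and TPM were made by the authors with RSEM, and use of molecular identifiers is not given in the sources used here. Expected counts were rounded to whole numbers. Symbols, positions and overlaps came from GENCODE M21 on GRCm38, and promoters from RefSeq.

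Genes passing filterByExpr (count minimum 10; 16252 of 55487) were fitted in R 4.3.3 with edgeR 4.0.16 (robust quasi-likelihood, TMM, condition and replicate number as terms, all 11 libraries). P values were adjusted by Benjamini-Hochberg per comparison, and genes under 0.05 were called. The procedure was also run on simulated counts with a common dispersion for all genes and no replicate effect, so that run does not cover the spread of these libraries. Alternatives were no replicate term, other normalizations (RLE, library size), no filter or a minimum of 30, DESeq2 1.42.0, limma-voom (limma 3.58.1), only the groups compared, and leaving out each library or replicate number. Pandas 2.3.3, numpy 2.4.6 and matplotlib 3.10.9 on Python 3.11.15 made tables and plots.

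The members and gene lists were chosen with earlier results of these data known. Named were all members, up to 4 genes with the smallest p per list in a comparison, the genes a count of 5 or fewer consists of, and the 3 genes (5 for Irf1) closest to each tested member by Pearson r of log2 CPM; other list genes were named for their role after their values were seen. Motifs were chosen after the values were seen. Some genes that this rule names are not reported here.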

Additional observations from a re-analysis of the deposited data

Results flagged for a closer look

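In the 16 groups of 4 libraries formed by the 8 members in PD-L1high and control cells, 4 had a library far from the other 3, past Dixon's 95% critical value for the gap over the range. Chance gives about 1 in 20 for independent, normally distributed values. That rate does not carry over here, since the groups share libraries and those of Irf4, Irf5 and Irf8 hold few counts. Control replicate 1 was the highest control library for Irf1 at 45.4 CPM, for Irf7 at 24.1 CPM and for Irf8 at 0.0776 CPM, the last being a single count. By TPM, Irf1 was higher in control replicate 3 (25.5 against 23.6 TPM). PD-L1high replicate 4 was the lowest PD-L1high library for Irf7 at 32.7 CPM. Without control replicate 1, the calls of Irf1, Irf7 and Irf9 in PD-L1high versus control and in PD-L1high versus PD-L1low held.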

How the results depend on the processing

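Irf1 and Irf7 passed the test in PD-L1high versus control and in PD-L1high versus PD-L1low under all 23 alternatives, and Irf9 in PD-L1high versus control under all 23. Among same-numbered libraries the deviations from the group means correlated at -0.329 to 0.408 (10 pairs) and among other libraries at -0.352 to 0.334 (30 pairs), so the numbers were not shown to pair the samples. With no replicate block, 127, 12 and 88 genes were called in PD-L1high versus control, PD-L1low versus control and PD-L1high versus PD-L1low, against 161, 13 and 119 with it, and 3, 0 and 2 members, as Irf9 had an adjusted p of 0.0865 in the last comparison. The Irf7 call in PD-L1high versus control was then near the threshold (adjusted p = 0.0498), and Stat2 was not called in PD-L1high versus control (0.0551) or versus PD-L1low (0.393).

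All genes called in PD-L1high versus control numbered 328 with no filter, 249 by DESeq2, 245 by limma-voom and 93 to 269 with a library or replicate number left out. In PD-L1low versus control they numbered 20 with library size normalization, 91 with no filter, 47 by DESeq2, 27 by limma-voom, 33 with only the 2 groups compared and 8 to 43 on leaving out. In PD-L1high versus PD-L1low they numbered 354, 202 and 180 with no filter, DESeq2 and limma-voom, and 64 to 143 on leaving out. Members called in PD-L1low versus control were 2 with no filter (Irf1 0.00968, Irf9 0.00156 as adjusted p), 2 by DESeq2 and 0 to 2 on leaving out, and in PD-L1high versus PD-L1low 2 to 3. The cause of these shifts was not tested.

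Uncalled values changed sign. Irf3 in PD-L1low versus control was -0.026 with no replicate block, -0.0024 with library size normalization, -0.0020 with a count minimum of 30 and -0.21 to 0.17 on leaving out, against 0.00058. In PD-L1high versus PD-L1low, leaving out gave -0.39 to 0.037 for Irf3 and -0.60 to 0.81 for Irf8. Depth limits Irf4, Irf5 and Irf8 most, at 0 to 26 counts per library.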
